A study of Mus musculus with 36 samples.

Results

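Astrocytes and Bergmann glia, the radial astrocytes of the cerebellum, were followed through 30 genes in the brains of mice with and without Gpt2. The genes were taken by symbol from the deposited tables, in a choice made with earlier results of these data known. All 30 were found among 56184 gene symbols. All 30 passed the filter on low counts that left 16255 genes for testing, and no library held fewer than 10 counts of any of them. The Gpt2 gene encodes mitochondrial alanine transaminase, which links alanine and α-ketoglutarate with pyruvate and glutamate. Libraries came from Gpt2-WT mice given vehicle (WT-Veh, n = 10) or dm-αKG (WT-aKG, n = 8), and from Gpt2-KO mice given vehicle (KO-Veh, n = 10) or dm-αKG (KO-aKG, n = 8). The dose of dm-αKG, an ester of α-ketoglutarate that enters cells, was 600 mg per kg into the peritoneum, and brains were taken on postnatal day 19. Sources used here name neither the deleted part of Gpt2 nor the strain, the sex or the piece of brain taken. The design calls the libraries biological replicates but ties none to an animal, so the p-values measure the spread between these libraries.

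Astrocytes take up transmitters, potassium, bicarbonate and water around synapses and blood vessels, pass metabolites to each other through gap junctions, and secrete matrix and synapse-regulating proteins. Bergmann glia do this work beside the Purkinje cells and keep radial fibres that guide granule cells in the young cerebellum. Astrocytes of different brain regions express these genes at different levels. A change in a piece of brain can therefore come with the regions it holds, and in bulk RNA fewer cells of a type cannot be told apart from less RNA per cell.

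Single libraries held 5.77 to 13.3 M counts (median 11.4 M). Gpt2 itself separated the genotypes, at 22 to 39 CPM (gene counts scaled to library size by TMM) in WT-Veh and 0.881 to 3.3 CPM with the knockout, and with dm-αKG at 26.3 to 38.1 and 1.12 to 3.18 CPM, with no overlap. The pieces of tissue differed in region. A cerebellum score, the mean log2 CPM of 21 cerebellar marker genes that include none of the 30, had medians of 1.61 in KO-Veh against 2.68 in WT-Veh, and of 2.32 in KO-aKG against 3.31 in WT-aKG. In 9 libraries, called cerebellum-rich here, it exceeded the mean of all libraries by more than 1 log2 unit: 1 of 10 KO-Veh, 3 of 10 WT-Veh, 1 of 8 KO-aKG and 4 of 8 WT-aKG libraries. Genotype differences called among the 30 without a covariate are therefore also given with this score in the model and without the 9 libraries. All libraries held astrocyte RNA: 40 other astrocyte markers summed to 8110 to 14500 CPM, and 0 of them were at 0 throughout.

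The promoters of 3 of the genes are shown because the results turn on them. Slc7a10 kept its genotype call with vehicle under all 11 alternatives. Fabp7 kept its call averaged over vehicle and dm-αKG under all 10 that give an average. Its single calls with vehicle and with dm-αKG were each kept under 7 of 11. Gdf10 follows cerebellar content most steeply. Promoter windows from RefSeq (GRCm38.p6), cut to the 250 bases before the annotated start, matched 24 of the 30 symbols, all but Aqp4, Chrdl1, Clu, Etv4, Sox9 and Sparcl1. Capitals mark TTGGC, the core bound by nuclear factor I proteins, a family that is known to drive astrocyte genes and whose members Nfia and Nfib were measured here too. The windows are read 5′ to 3′ on the plus strand, at chr10:57784673-57784922 for Fabp7, chr7:35186135-35186384 for Slc7a10 and chr14:33923337-33923586 for Gdf10.
Fabp7: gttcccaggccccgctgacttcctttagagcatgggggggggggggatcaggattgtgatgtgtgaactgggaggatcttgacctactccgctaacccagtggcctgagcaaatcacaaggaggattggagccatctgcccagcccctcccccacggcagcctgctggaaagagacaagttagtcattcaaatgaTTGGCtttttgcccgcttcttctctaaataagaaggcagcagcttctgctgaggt
Slc7a10: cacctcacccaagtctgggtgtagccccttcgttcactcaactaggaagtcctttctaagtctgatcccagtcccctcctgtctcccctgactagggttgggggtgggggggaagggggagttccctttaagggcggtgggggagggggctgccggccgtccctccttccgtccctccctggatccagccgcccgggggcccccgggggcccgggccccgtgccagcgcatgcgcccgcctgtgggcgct
Gdf10: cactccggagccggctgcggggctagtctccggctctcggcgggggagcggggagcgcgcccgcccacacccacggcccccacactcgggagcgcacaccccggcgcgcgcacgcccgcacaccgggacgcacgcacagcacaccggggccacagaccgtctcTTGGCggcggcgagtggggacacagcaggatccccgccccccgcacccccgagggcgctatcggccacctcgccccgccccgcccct
The Fabp7 window holds the letters 55 bases before the start and the Gdf10 window 87 bases before it, and the Slc7a10 window does not hold them on either strand. Searched on both strands, TTGGC occurred in 15 of the 28 windows of these genes (53.6%) and in 41.5% of 32851 windows of all genes. The letters GTGGGAA, bound by the Notch partner RBPJ, occurred in 0 of the 28 windows and in 5.42% of all windows. Such a match is a description of letters and not a site shown to be used.

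With vehicle, 4 of the 30 genes were lower in knockouts and 0 higher: the water channel gene Aqp4, the amino acid transporter gene Slc7a10, the glial fatty acid binding protein gene Fabp7 and the transcription factor gene Etv4. Over all genes tested 4.31% passed the same threshold (edgeR adjusted p under 0.05), 2.6% higher and 1.72% lower. Of the 30, 26 had an estimate below 0, and their median log2 fold change was −0.25, beside −0.02 over all genes. Once the cerebellum score was in the model, 3 of the 30 were lower, Aqp4, Slc7a10 and the glycogen-targeting gene Ppp1r3c, where 5.96% of all genes passed (3.37% higher, 2.6% lower), and the median was −0.17. The 21 cerebellar markers all had estimates below 0 in the same comparison (median −1.10, 0 called), with summed levels of 145 to 5900 CPM in WT-Veh against 52.4 to 6250 in KO-Veh and none at 0 in every library. So did all 12 oligodendrocyte markers (median −0.61, 0 called, summed levels 4080 to 41100 and 3460 to 20200 CPM) and all 12 tested of 17 brainstem and thalamus markers (median −1.82, 0 called, 28.5 to 567 and 24.9 to 108 CPM). All 13 choroid plexus markers also had estimates below 0 (median −0.96, 0 called, 9 at an unadjusted p under 0.05, summed levels 34.7 to 1940 and 32.1 to 1150 CPM), as had 9 of 10 markers of meninges and mural cells (median −0.34, 1 called, Lum, 199 to 524 and 214 to 472 CPM). Other regions went the other way. Estimates were above 0 for 13 of 14 striatum markers (median 0.69), 11 of 14 tested cortex markers (median 0.39) and 9 of 13 tested hypothalamus markers (median 0.59), with 0 called in each list. None of these markers was at 0 in every library. The part of these regions and cell types in the result was not tested beyond the fits with scores given here, which hold none for choroid plexus or meninges.

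With dm-αKG, 1 of the 30 was lower in knockouts, Fabp7, and 0 were higher, where 1.87% of all genes passed (1.12% higher, 0.751% lower). The median was −0.17, and 18 of 30 estimates were below 0. In the same comparison all 13 tested of 16 hypothalamus markers had estimates above 0 (median 1.95, Hcrt and Pmch called), with summed levels of 11 to 1160 CPM in KO-aKG against 9.23 to 117 in WT-aKG and median scores of 2.27 and 0.2. Cerebellar markers had estimates below 0 for 19 of 21 (median −1.94, 0 called; 77.5 to 1940 against 83.7 to 4920 CPM), and none of either list was at 0 in every library. Fabp7, with the cerebellum score in the model, was again the gene called (3.58% of all genes passed, 1.81% higher and 1.77% lower) and the median was −0.05. Averaged over vehicle and dm-αKG, which uses all 36 libraries, 6 were lower and 0 higher: Fabp7, Etv4, Mlc1, Aqp4, Hopx and Slc7a10. Of all genes 11.9% passed in that average, 5.7% higher and 6.17% lower, and the median of the 30 was −0.24. In the fit with the score 5 were lower (Fabp7, Ppp1r3c, Mlc1, Aqp4 and Slc7a10), where 13.1% of all genes passed (6.33% higher, 6.73% lower). In each pair of groups compared, the ranges of all 30 genes overlapped. The share of all genes with overlapping ranges was not counted, so this is not read as a trait of the 30.

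**Figure D1:**
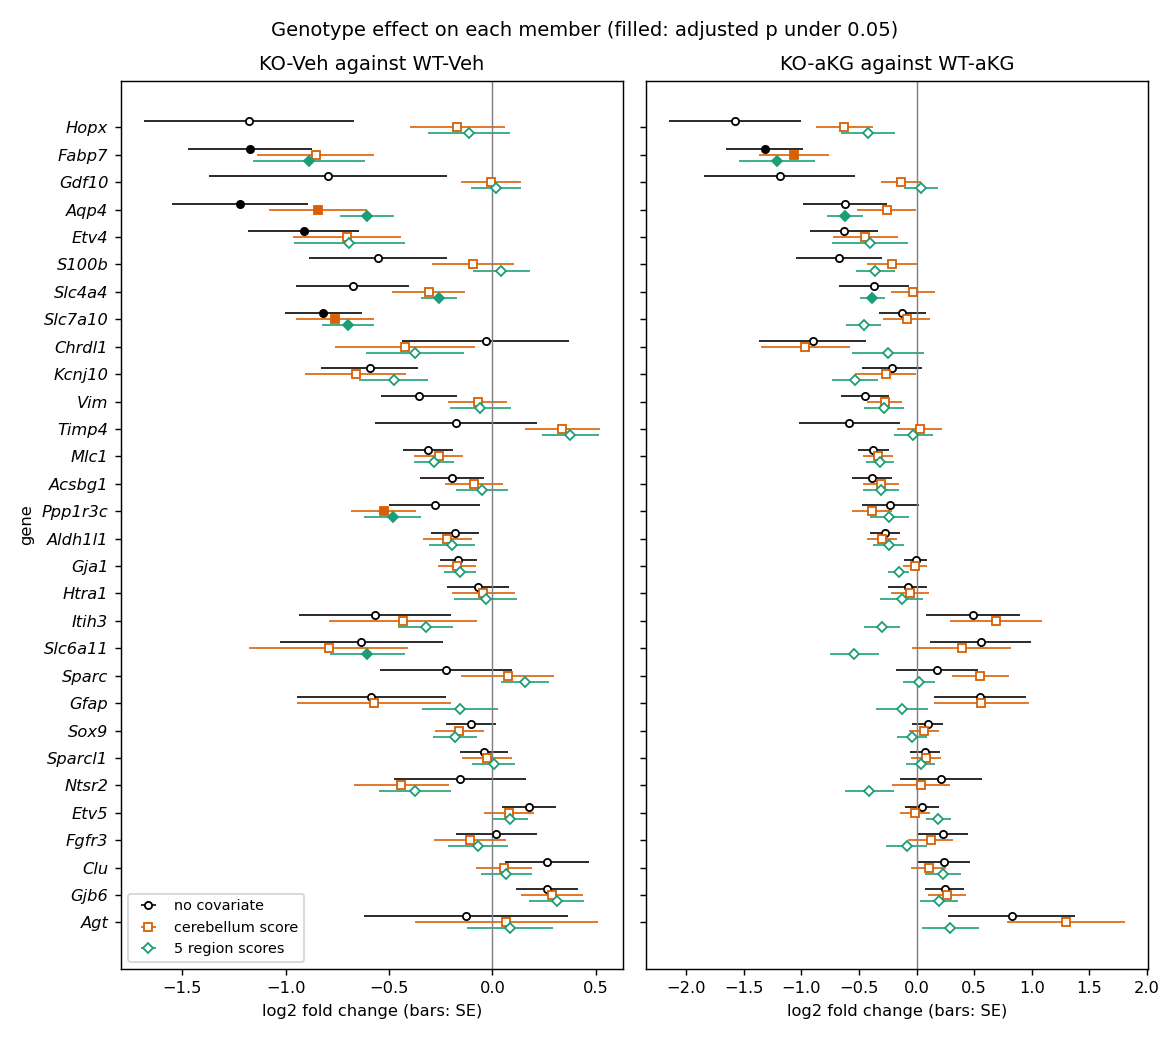
Genotype effect (log2 fold change, KO against WT, bars are SE) on each of the 30 genes with vehicle (left) and dm-αKG (right), without a covariate, with the cerebellum score and with 5 region scores; filled symbols passed the adjusted threshold of 0.05. The estimates of Gdf10 and Hopx move toward 0 once a cerebellum score is in the model, and those of Slc7a10 with vehicle and of Fabp7 in both panels stay well below 0.

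Among the 6 membrane transport genes, Slc7a10, the Asc-1 carrier of serine, glycine and alanine, kept its call with vehicle under all 11 alternatives and with each of the 36 libraries left out in turn. It stood at 26.7, 34.2 and 54.2 CPM (lowest, median, highest) in WT-Veh against 14.3, 21.6 and 29.4 in KO-Veh. All 10 KO-Veh libraries lay below the WT-Veh median, and 8 of them below the lowest WT-Veh library. The log2 fold change was −0.82 (SE 0.19, adjusted p = 0.00769), −0.76 (SE 0.19, adjusted p = 0.0123) with the cerebellum score, and −0.88 (adjusted p = 0.00905) without the 9 cerebellum-rich libraries. With dm-αKG the range was 26 to 75.7 CPM in WT-aKG (median 34.8) and 22 to 60.2 CPM in KO-aKG (median 35.6). Of the KO-aKG libraries 4 lay below the WT-aKG median and 3 below its lowest library, and the log2 fold change was −0.13 (SE 0.21, adjusted p = 0.821). The difference between both genotype effects was 0.69 (95% interval 0.15 to 1.23), with an adjusted p of 0.961 over all genes, so it did not pass the test. Averaged over treatments Slc7a10 was at −0.47 (SE 0.14, adjusted p = 0.0227), a call lost without WT-aKG-8 (−0.37, adjusted p = 0.0516) or without the cerebellum-rich libraries (−0.38, adjusted p = 0.108).

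Aqp4, the water channel of astrocyte endfeet at blood vessels, stood at 52.9, 72.4 and 234 CPM in WT-Veh against 24.5, 38.6 and 123 in KO-Veh. Of the 10 KO-Veh libraries 8 lay below every WT-Veh library, and the highest KO-Veh value came from KO-Veh-7, the cerebellum-rich library of that group. The log2 fold change was −1.22 (SE 0.33, adjusted p = 0.0264) and shrank to −0.84 (SE 0.24, adjusted p = 0.0284) with the cerebellum score. Without the 9 cerebellum-rich libraries it was −1.15 (adjusted p = 0.0217). With dm-αKG the levels were 51.8, 122 and 235 CPM in WT-aKG against 42.6, 77.6 and 137 in KO-aKG, with wide overlap. That log2 fold change was −0.62 (SE 0.36, adjusted p = 0.411) and −0.26 with the cerebellum score. It was 0.33 without the cerebellum-rich libraries, which left 4 WT-aKG and 7 KO-aKG libraries. With 5 region scores it was −0.63 (adjusted p = 0.0223), and with oligodendrocyte and neuron scores −0.75 (adjusted p = 0.0239). The part of any single region in its direction was not tested. The average of −0.92 (SE 0.24, adjusted p = 0.0119) was −0.55 (SE 0.18, adjusted p = 0.0357) with the cerebellum score. It was −0.41 (adjusted p = 0.264) without the cerebellum-rich libraries. Leaving out WT-Veh-1, WT-Veh-2, WT-Veh-6, KO-Veh-4 or KO-Veh-10 in turn took the vehicle difference out of the calls, the largest adjusted p being 0.0704 without WT-Veh-2. The vehicle call was also lost with no low-count filter (adjusted p = 0.0775) and with only the 2 groups compared (adjusted p = 0.0572). With limma neither the vehicle difference (limma adjusted p = 0.123) nor the average (limma adjusted p = 0.0897) was called.

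Mlc1, a membrane protein of the endfeet that controls cell volume, had lower medians in knockouts under both treatments. It stood at 114, 179 and 215 CPM in WT-Veh against 99.6, 131 and 214 in KO-Veh, and at 148, 176 and 210 CPM in WT-aKG against 119, 132 and 195 in KO-aKG. Of the knockout libraries 9 of 10 with vehicle and 7 of 8 with dm-αKG lay below the wild-type median. The log2 fold changes of −0.31 (SE 0.12) and −0.38 (SE 0.14) did not pass singly, and the average of −0.34 (SE 0.09) did (adjusted p = 0.0111). That average was −0.30 (SE 0.09, adjusted p = 0.0239) with the cerebellum score and −0.33 (adjusted p = 0.0292) without the cerebellum-rich libraries.

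The other 3 transport genes did not pass in either genotype comparison without a covariate. Kcnj10, the Kir4.1 potassium channel, had medians of 112 CPM in WT-Veh against 80.9 in KO-Veh, and a log2 fold change of −0.59 (SE 0.24, adjusted p = 0.141; −0.66 with the cerebellum score). Slc4a4, the sodium bicarbonate cotransporter, had medians of 189 and 131 CPM (−0.68, SE 0.27, adjusted p = 0.149; −0.31 with the score). Slc6a11, the GABA transporter GAT-3, had medians of 70.9 and 49.5 CPM (−0.63, SE 0.39, adjusted p = 0.354; −0.79 with the score). Thus all 6 estimates of the transport genes were below 0 with vehicle (median −0.65), of which 2 passed.

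Fabp7, which binds brain lipids in radial glia, Bergmann glia and young astrocytes, was the gene with the firmest difference over both treatments. Its levels were 164, 250 and 605 CPM in WT-Veh against 51.5, 128 and 285 in KO-Veh. They were 216, 440 and 787 CPM in WT-aKG against 125, 154 and 376 in KO-aKG. Of the KO-Veh libraries 9 of 10 lay below the WT-Veh median, and all 8 KO-aKG libraries lay below the WT-aKG median, while the ranges overlapped. The vehicle difference was −1.17 on the log2 scale (SE 0.30, adjusted p = 0.0197). After dm-αKG it was −1.32 (SE 0.34, adjusted p = 0.0322), and the average was −1.25 (SE 0.23, adjusted p = 0.000329). The score moved these to −0.85 (SE 0.28, adjusted p = 0.0649), −1.06 (SE 0.30, adjusted p = 0.0426) and −0.96 (SE 0.21, adjusted p = 0.00267). Without the cerebellum-rich libraries the average was −0.85 (adjusted p = 0.0227), and the single comparisons had adjusted p-values of 0.118 and 0.18. The vehicle call was lost without WT-Veh-6 (adjusted p = 0.0547). The call with dm-αKG was lost when any of 8 single libraries (WT-aKG-3, WT-aKG-6 or WT-aKG-7, or KO-aKG-1, KO-aKG-2, KO-aKG-3, KO-aKG-6 or KO-aKG-8) was left out, with adjusted p-values up to 0.0866.

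The other genes of the cytoskeleton and of calcium binding did not pass with edgeR without a covariate. Gfap, the intermediate filament of fibrous and reactive astrocytes, had medians of 45.2 (WT-Veh), 45.9 (WT-aKG), 37.8 (KO-Veh) and 64.1 CPM (KO-aKG), and single libraries reached 263, 143, 96.9 and 180 CPM. Vim, the intermediate filament of immature glia, had medians of 54.8, 63, 50.1 and 53.6 CPM in the same order, and its average genotype effect of −0.40 (SE 0.14) had an adjusted p of 0.0513. That effect of Vim was called by DESeq2 (adjusted p = 0.0366), with oligodendrocyte and neuron scores (adjusted p = 0.025) and when any of 11 single libraries was left out, and it was −0.17 with the cerebellum score and −0.06 (adjusted p = 0.794) without the cerebellum-rich libraries. S100b, a calcium-binding protein, had medians of 286, 503, 242 and 365 CPM, and ran from 148 to 870 CPM within KO-Veh alone. Neither gap junction gene was called: Gja1 (connexin 43) had medians of 171, 162, 141 and 166 CPM and a log2 fold change of −0.16 (SE 0.09, adjusted p = 0.286) with vehicle, and Gjb6 (connexin 30) 51.1, 48.1, 63.7 and 66.4 CPM and 0.27 (SE 0.15, adjusted p = 0.302).

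Among the metabolic enzymes, Ppp1r3c, which brings protein phosphatase to glycogen, passed only once the cerebellum score was in the model. Its levels were 14, 28.6 and 58.8 CPM in WT-Veh against 15.2, 26.1 and 37.3 in KO-Veh, which overlapped broadly. The log2 fold change with vehicle was −0.28 (SE 0.22, adjusted p = 0.482) without a covariate, and −0.53 (SE 0.16, adjusted p = 0.0389) with the score, and the average went from −0.25 (SE 0.17, adjusted p = 0.32) to −0.46 (SE 0.12, adjusted p = 0.00864). Ppp1r3c fell with rising cerebellum score within groups (slope below). Aldh1l1, a folate enzyme used as a general astrocyte marker, had medians of 35.7, 35.2, 32.7 and 28.3 CPM across the groups (order as for Gfap). Acsbg1, which activates long-chain fatty acids, had medians of 123, 132, 98.6 and 109 CPM, and neither gene passed in any genotype comparison.

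Of the nuclear regulators, Etv4, an ETS factor induced by fibroblast growth factor signals, stood at 2.83, 6.93 and 12.4 CPM in WT-Veh against 1.39, 3.86 and 6.37 in KO-Veh. All 10 KO-Veh libraries lay below the WT-Veh median. The log2 fold change with vehicle was −0.91 (SE 0.27, adjusted p = 0.0426), and −0.70 (SE 0.26, adjusted p = 0.104) with the cerebellum score. With dm-αKG levels were 3.2, 5.89 and 13.5 CPM in WT-aKG against 3.45, 4.82 and 6.06 in KO-aKG (−0.63, SE 0.30, adjusted p = 0.293). The vehicle call of Etv4 was lost when any of 13 single libraries was left out, to an adjusted p of 0.103 without WT-Veh-9. Its average of −0.77 (SE 0.20, adjusted p = 0.00984) became −0.58 (SE 0.20, adjusted p = 0.05, not under the threshold) with the score. Without the cerebellum-rich libraries neither was called (−0.74 with vehicle, adjusted p = 0.102, and −0.39 on average, adjusted p = 0.243). Etv5, a related factor gene, was not called, and its medians were 16 CPM in WT-Veh against 19.3 in KO-Veh (0.18, SE 0.13, adjusted p = 0.444).

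Hopx, a homeodomain-like protein gene of Bergmann glia and other astrocytes, had the lowest average estimate of the 30 genes without a covariate and one of the largest shifts with the score. It stood at 82.5, 125 and 739 CPM in WT-Veh, 51.1, 83.1 and 484 in KO-Veh, 76, 186 and 956 in WT-aKG and 49.1, 111 and 253 in KO-aKG. The high values in each group were those of the cerebellum-rich libraries. Its average log2 fold change was −1.38 (SE 0.38, adjusted p = 0.0166), −0.40 (SE 0.18, adjusted p = 0.136) with the cerebellum score and −0.25 (adjusted p = 0.341) without those libraries. Sox9, the factor that specifies astrocytes, had medians of 50.7, 40.7, 50.5 and 45.2 CPM across the groups (order as for Gfap) and was not called in any comparison.

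**Figure D2:**
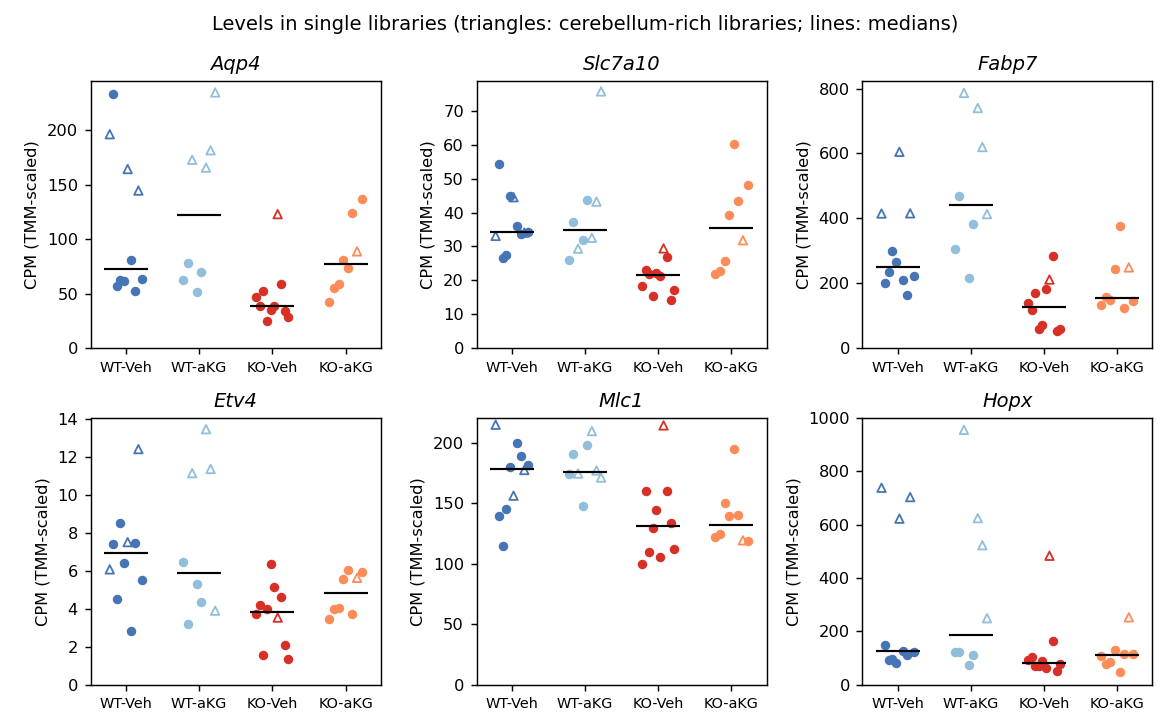
CPM (linear axis from 0) in every library for the 6 genes called lower in knockouts in a genotype comparison without a covariate, by group, with the 9 cerebellum-rich libraries as open triangles and group medians as lines. The KO-Veh libraries of Slc7a10 sit between 14.3 and 29.4 CPM, all below the WT-Veh median of 34.2 CPM, and for Hopx each group's highest value is a triangle.

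The receptors Fgfr3, for fibroblast growth factors, and Ntsr2, for neurotensin, were not called in any genotype comparison without a covariate. Fgfr3 had medians of 66 CPM in WT-Veh against 65.1 in KO-Veh. Ntsr2 had medians of 150 and 117 CPM, with 23.2 to 213 CPM in WT-Veh. None of the 9 secreted protein genes passed with edgeR in these comparisons either, and at an unadjusted p under 0.05 there were 0 with vehicle, 0 with dm-αKG and 1 in the average. Gdf10, a growth factor gene of the BMP family restricted largely to Bergmann glia, had medians of 14.9 CPM in WT-Veh, 9.85 in KO-Veh, 19.6 in WT-aKG and 9.41 in KO-aKG. Its log2 fold change of −0.79 (SE 0.58) with vehicle became −0.01 (SE 0.15) with the cerebellum score, and −1.19 (SE 0.66) with dm-αKG became −0.14 (SE 0.17). Without KO-Veh-7 the vehicle estimate of Gdf10 without a covariate was −1.84 (adjusted p = 0.0225) and the average −1.51 (adjusted p = 0.00514), which passed. Agt, which encodes angiotensinogen, had the highest estimate with dm-αKG, 0.82 (SE 0.55, adjusted p = 0.494), from medians of 138 CPM in WT-aKG against 217 in KO-aKG. That estimate was 1.3 with the cerebellum score and 0.29 with 5 region scores, and was not called with either. Sparcl1 (hevin) had medians of 965, 968, 892 and 1090 CPM across the groups (order as for Gfap), and Clu (clusterin) 473, 400, 552 and 526 CPM. Sparc, Htra1, Timp4, Chrdl1 and Itih3 had group medians of 819 to 1500, 99.6 to 112, 73.4 to 112, 2.07 to 5.13 and 10.2 to 29.9 CPM, in that order.

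The tissue pieces differed in more than cerebellum, so the same contrasts were also fitted with 5 region scores (cerebellum, cortex, striatum, hypothalamus, and brainstem with thalamus). In the average over treatments 10 of the 30 were then lower and 0 higher, where 18.2% of all genes passed, 8.24% higher and 9.92% lower. All 6 transport genes were among the 10: Aqp4 at −0.62 (SE 0.10, adjusted p = 7.94e-05), Slc7a10 at −0.58 (SE 0.10, adjusted p = 0.000108), Slc6a11 at −0.57 (SE 0.14), Kcnj10 at −0.51 (SE 0.13), Slc4a4 at −0.32 (SE 0.07) and Mlc1 at −0.30 (SE 0.08). The other 4 were Fabp7 (−1.05, SE 0.22), Ntsr2 (−0.39, SE 0.14), Ppp1r3c (−0.36, SE 0.11) and Itih3 (−0.31, SE 0.10). Of these, Slc6a11, Ntsr2 and Itih3 had averages of −0.04, 0.03 and −0.04 without a covariate, so their difference appears only relative to the region scores.

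With these 5 scores the estimates of Aqp4 and Slc7a10 under both treatments lay closer to each other than without them; for Fabp7 they did not. Aqp4 was at −0.61 in vehicle-treated mice (SE 0.13, adjusted p = 0.00227), and after dm-αKG at −0.63 (SE 0.16, adjusted p = 0.0223). Slc7a10 was at −0.70 (SE 0.13, adjusted p = 0.000384) and −0.46 (SE 0.15, adjusted p = 0.0839), and Slc4a4 at −0.26 (SE 0.09, adjusted p = 0.0484) and −0.38 (SE 0.11, adjusted p = 0.0397). Fabp7 was at −0.89 (SE 0.27, adjusted p = 0.0322) and −1.21 (SE 0.33, adjusted p = 0.0396). In all, 6 of the 30 were lower with vehicle (11.1% of all genes passed, 5.31% higher and 5.82% lower) and 3 with dm-αKG (2.93% of all genes passed, 1.45% higher and 1.48% lower). Etv4 was not called (−0.69 and −0.40).

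None of the 30 genes passed the test for dm-αKG against vehicle, in wild types or in knockouts, and the interaction of genotype and treatment called 0 as well. In all 3 comparisons 0% of all genes passed with edgeR, and DESeq2 and limma on CPM also called 0 of the 30. Of the 30, 0 passed with the cerebellum score either (0.00615% of all genes in wild types, higher, and 0% in the other 2 comparisons), or with the 5 region scores (1.45% of all genes in wild types, 0.886% higher and 0.56% lower, and 0% in the other 2). At an unadjusted p under 0.05 there were 2 of 30 in wild types (1389 of 16255 over all genes), 7 of 30 in knockouts (1973 over all genes) and 2 of 30 for the interaction (729 over all genes). In wild types the estimates ran from −0.40 (Gdf10) to 0.70 (Fabp7, SE 0.31, adjusted p = 0.514). In knockouts they ran from −0.82 (Chrdl1, SE 0.44) to 1.14 (Slc6a11, SE 0.42, adjusted p = 0.266).

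Several estimates in treated knockouts were sizeable even so; they share the KO-Veh libraries with the vehicle genotype comparison. Counts of Xist lay above those of the Y-linked Ddx3y in 4 of 8 libraries of treated knockouts beside 2 of 10 with vehicle (5 of 8 and 2 of 10 in wild types), and with this as a covariate 0 of the 30 passed as well. Slc7a10 had medians of 21.6 CPM in KO-Veh and 35.6 CPM in KO-aKG, and all 8 KO-aKG libraries lay above the KO-Veh median (0.81, SE 0.19, adjusted p = 0.214). Itih3, an inter-α-trypsin inhibitor heavy chain that binds hyaluronan, had medians of 10.2 and 29.9 CPM (1.11, SE 0.39, adjusted p = 0.251), and Gfap 37.8 and 64.1 CPM (0.97, SE 0.38, adjusted p = 0.303). Aqp4 (0.79, SE 0.34) and Kcnj10 (0.63, SE 0.25) pointed the same way, and Etv5 the other way (−0.41, SE 0.14). Markers of brainstem and thalamus had estimates above 0 in KO-aKG against KO-Veh for all 12 tested of 17 (median log2 fold change 2.65, 0 called), with summed levels of 46.6 to 366 CPM (median 186) beside 24.9 to 108 CPM (median 57.2) and none at 0 in every library. The 12 oligodendrocyte markers had estimates above 0 as well (median 0.86, 0 called), at 8260 to 34900 CPM beside 3460 to 20200 CPM. With the 5 region scores the estimates were 0.30 (SE 0.15) for Slc7a10, 0.03 (SE 0.15) for Itih3, 0 (SE 0.22) for Gfap, 0.21 (SE 0.15) for Aqp4 and 0.04 (SE 0.21) for Slc6a11.

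**Figure D3:**
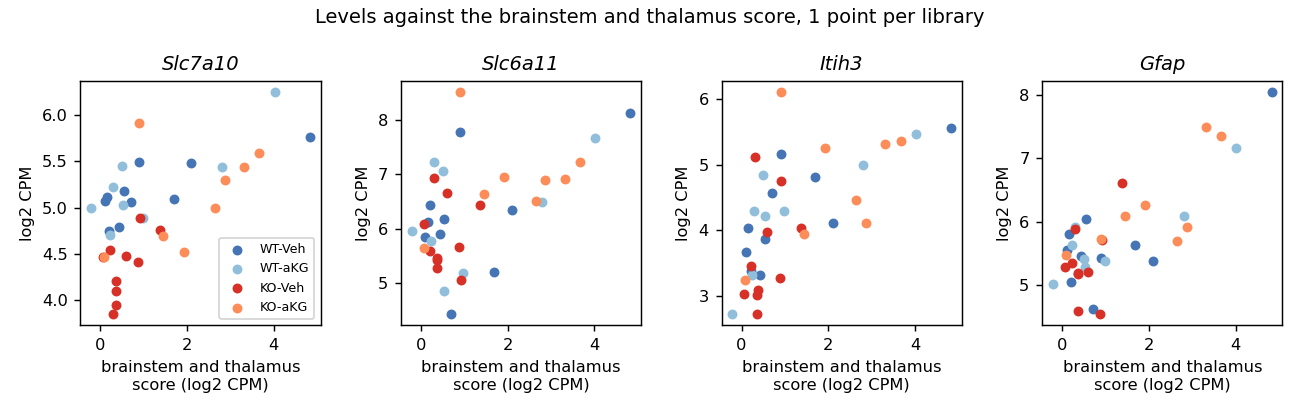
Log2 CPM of 4 genes with sizeable estimates in treated knockouts against the brainstem and thalamus score (mean log2 CPM of its markers), 1 point per library, coloured by group. The KO-aKG scores have a median of 2.29 beside 0.37 in KO-Veh, and WT-Veh-2, with the highest score of 4.83, also has the highest Gfap level of 263 CPM.

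How the 30 genes followed regional content was tested directly, as the slope of each gene on the cerebellum score within the 4 groups. A slope of 1 means that a gene rises by as much as the markers do. Of the 30, 12 rose and 6 fell with the score, where 57.5% of all genes passed, 29.1% rising and 28.4% falling, a share near that of the 30. Gdf10 had the steepest slope at 0.64 (SE 0.03, adjusted p = 1.33e-20), followed by Hopx at 0.53 (SE 0.04, adjusted p = 1.57e-12) and Timp4, an inhibitor of matrix metalloproteinases, at 0.41 (SE 0.03, adjusted p = 3.81e-12). S100b (0.32), Agt (0.31), Aqp4 (0.28), Sparc (0.28), Slc4a4 (0.25), Fabp7 (0.17), Vim (0.15), Etv4 (0.13) and Acsbg1 (0.08) also rose. Ntsr2 fell most at −0.32 (SE 0.05, adjusted p = 5.2e-06), followed by the BMP antagonist gene Chrdl1 at −0.31 (SE 0.07), Ppp1r3c (−0.21), Clu (−0.20), Fgfr3 (−0.12) and Etv5 (−0.08). Among those with no call were Gja1 (−0.01, SE 0.02), Sparcl1 (0.01, SE 0.02) and Slc7a10 (0.05, SE 0.04).

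Of these 18 calls 1 was left without the cerebellum-rich libraries. Gdf10 lay at 27.5, 58.7 and 117 CPM (lowest, median, highest) in those 9 libraries and at 5.84, 9.4 and 17.3 CPM in the other 27. Hopx lay at 250 to 956 CPM beside 49.1 to 162 CPM, and Timp4 at 141 to 339 CPM beside 32 to 138 CPM. Clu went the other way, at 232 to 391 CPM beside 417 to 825 CPM. These 4 of the 30 did not overlap between the 9 and the 27 libraries, 3 higher and 1 lower, where 1.49% of all genes were higher and 0.265% lower without overlap. Within the 27 libraries alone Gdf10 kept a called slope (0.38, adjusted p = 0.000408), the slopes of Hopx (0.09), Timp4 (0.25) and Ntsr2 (−0.02) did not pass, and 142 genes passed in all.

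**Figure D4:**
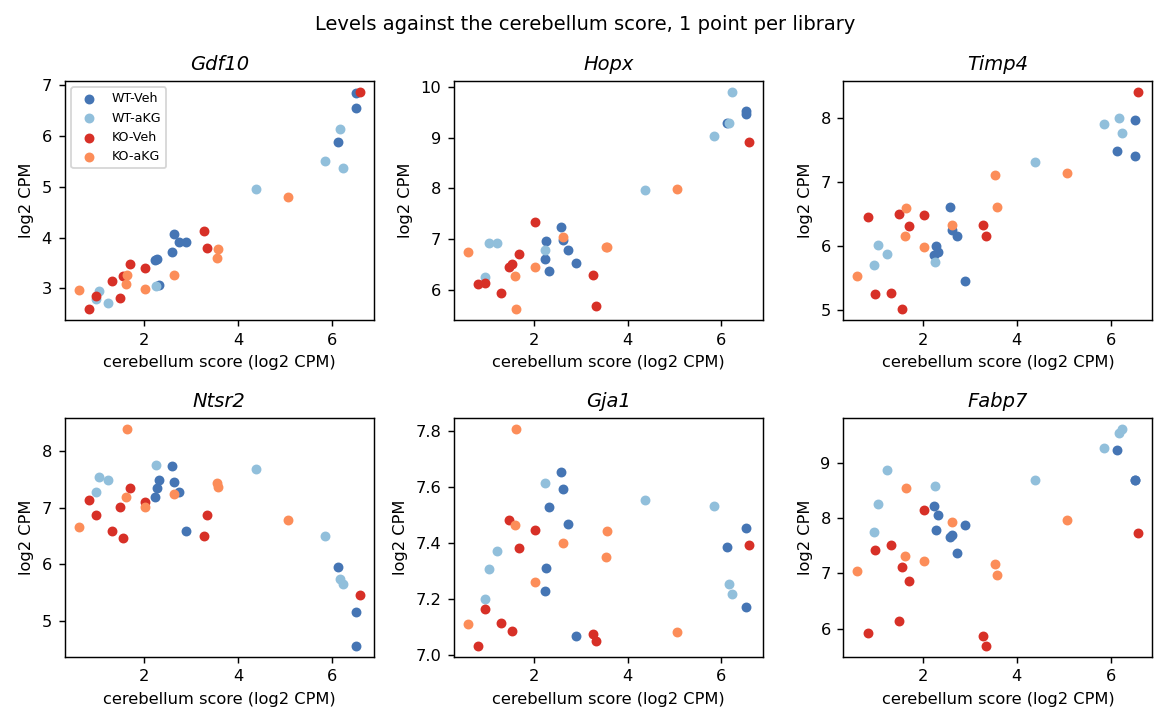
Log2 CPM of 6 genes against the cerebellum score (mean log2 CPM of 21 markers), 1 point per library, coloured by group. Gdf10, Hopx and Timp4 rise with the score, Ntsr2 falls, Gja1 has a slope of −0.01, and Fabp7 rises with a slope of 0.17.

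The slope on the brainstem and thalamus score, chosen after the data were seen, gave another order. Here 9 of the 30 rose and 1 fell, where 18.3% of all genes passed, 8.16% rising and 10.2% falling. Gfap rose most at 0.48 (SE 0.06, adjusted p = 8.07e-07), followed by Aqp4 at 0.44 (SE 0.08, adjusted p = 0.000136), Agt (0.43), S100b (0.37), Itih3 (0.33), Sparc (0.30), Slc4a4 (0.25), Kcnj10 (0.24) and Slc7a10 (0.21, SE 0.05, adjusted p = 0.00204). Chrdl1 fell by 0.58 (SE 0.12, adjusted p = 0.000615). Aqp4, Agt, S100b, Sparc and Slc4a4 thus rose on both scores, each score fitted without the other. Gdf10 (0.37, SE 0.23) and Hopx (0.36, SE 0.20) did not pass on the brainstem and thalamus score. Each of the 36 libraries was also left out in turn. The call on this score was then kept 29 times for Slc4a4, 30 for Agt and 34 for Sparc, and 36 times for Aqp4 and S100b. With oligodendrocyte and neuron scores added to the model 0 of the 30 passed and 10 genes passed in all.

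**Figure D5:**
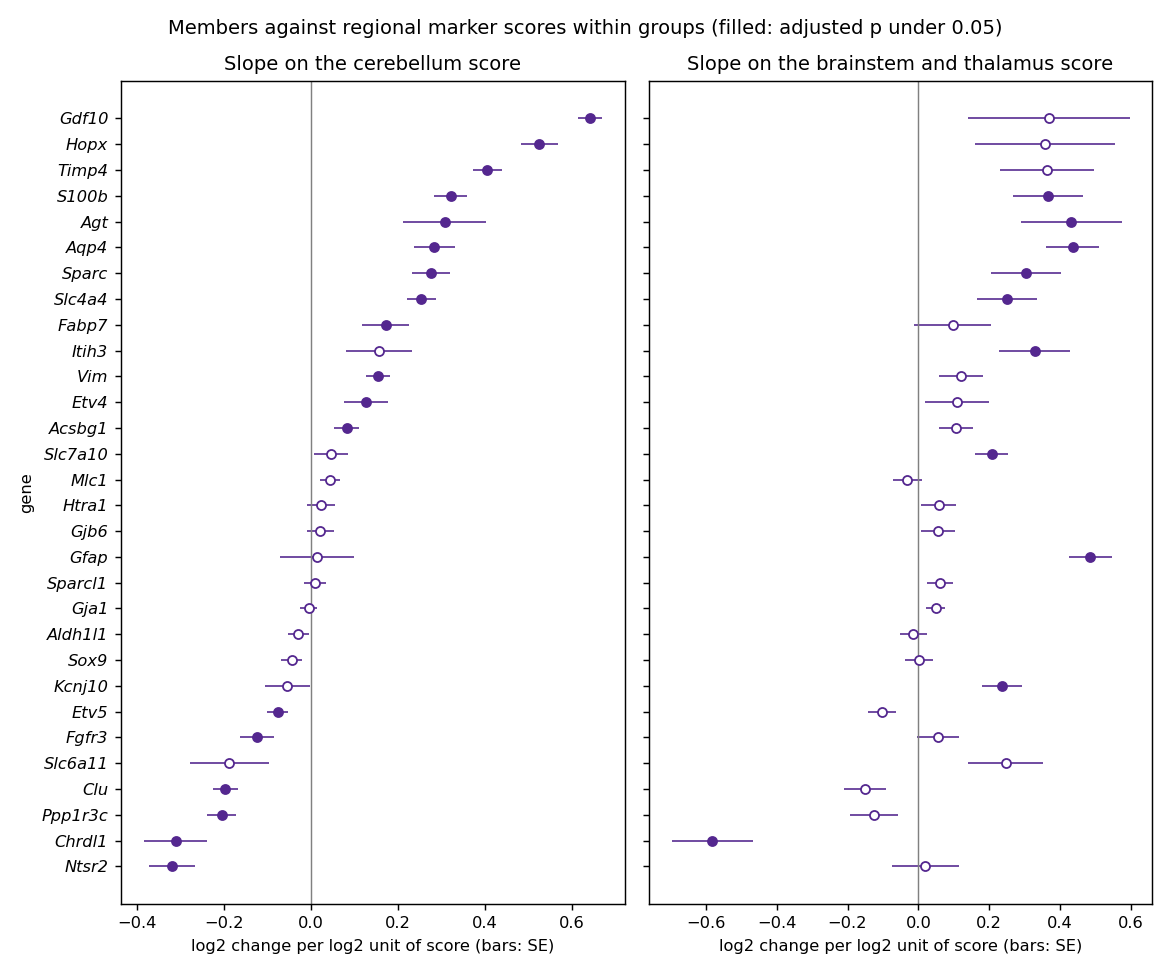
Slope of each of the 30 genes on the cerebellum score (left) and on the brainstem and thalamus score (right), in log2 change per log2 unit of score, with SE bars; filled points passed the adjusted threshold of 0.05. Gdf10 and Hopx lead on the left, Gfap and Aqp4 on the right, and Chrdl1 falls on both.

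These genes varied more between libraries of a group than most. The SD of log2 CPM within groups had a median of 0.57 over the 30, beside 0.36 over all genes tested, and ran from 0.19 (Gja1) to 1.22 (Gdf10 and Agt). Given the cerebellum score, the SD of Gdf10 fell from 1.22 to 0.33, that of Hopx from 1.11 to 0.52 and that of Timp4 from 0.87 to 0.41. Given all 5 region scores, that of Agt fell from 1.22 to 0.48, that of Itih3 from 0.84 to 0.30 and that of Slc6a11 from 0.90 to 0.42. The SD of Fabp7 stayed near its value, 0.69 without a score and 0.59 with 5, and that of Slc7a10 went from 0.41 to 0.29.

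Other genes of the same cells were counted in the same way. Of 40 further astrocyte markers 3 were lower in knockouts with vehicle and 0 higher, and 25 estimates were below 0 (median −0.18), where 1.72% of all genes were called lower, 2.6% higher, and 53.3% of all estimates were below 0. These were Slc13a3, a dicarboxylate carrier that takes up α-ketoglutarate among others (−0.76, SE 0.17, adjusted p = 0.0075), the Toll-like receptor partner Tril (−0.69, SE 0.17, adjusted p = 0.0128) and Nfia (−0.39, SE 0.11, adjusted p = 0.0324). With the score Tril was at −0.55 (SE 0.15, adjusted p = 0.0251) and Nfia at −0.29 (SE 0.10, adjusted p = 0.0706). Slc13a3 stood at 9.55, 14.8 and 18.7 CPM in WT-Veh against 4.47, 9.07 and 11.1 in KO-Veh, and was −0.66 (SE 0.17, adjusted p = 0.014) with the cerebellum score. With dm-αKG 0 of 40 passed with edgeR (28 below 0, 6 at an unadjusted p under 0.05), and in the average 7 were lower and 0 higher (6.17% and 5.7% of all genes), among them Nfib (−0.62, SE 0.17, adjusted p = 0.0173). With the cerebellum score the average of Nfia was −0.32 (SE 0.07, adjusted p = 0.0034) and that of Nfib −0.28 (SE 0.11, adjusted p = 0.0742).

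Of 16 further Bergmann glia genes 2 were lower with vehicle and 0 higher, and 15 estimates were below 0 (median −0.37), against the same shares of all genes. With dm-αKG 0 of the 16 passed with edgeR (5 at an unadjusted p under 0.05), and 14 estimates were below 0 (median −0.36). Tnc, the matrix protein tenascin C of immature glia, stood, in its lowest, median and highest library, at 3.55, 6.61 and 56.8 CPM in WT-Veh against 1.12, 2.03 and 7.45 in KO-Veh. Its log2 fold change was −2.43 (SE 0.47, adjusted p = 0.00179), and −1.51 (SE 0.29, adjusted p = 0.00135) with the cerebellum score. Cdc42ep1, a regulator of cell shape, was at −1.07 (SE 0.29, adjusted p = 0.0264), and at −0.77 (SE 0.22, adjusted p = 0.0287) with the score. Both genes rose with the cerebellum score within groups (slopes of 0.44 for Tnc and 0.23 for Cdc42ep1). The medians and counts of the 16 genes are from fits without that score. None of 12 genes of the endfoot complex, which anchors water and potassium channels at vessels, passed with vehicle by edgeR (3 at an unadjusted p under 0.05), though all 12 estimates were below 0 (median −0.22). With dm-αKG 0 of 12 passed with edgeR (2 at an unadjusted p under 0.05), with 5 estimates above and 7 below 0 (median −0.10). Over all 16255 genes 3417 had an unadjusted p under 0.05 with vehicle and 2553 with dm-αKG. In the average Dtna, the dystrobrevin of that complex, was lower (−0.38, SE 0.11, adjusted p = 0.0215), and not called with the cerebellum score (−0.21, adjusted p = 0.0797). Of 14 tested targets of fibroblast growth factor and ERK signals, the class of Etv4 and Etv5, 1 was lower with vehicle and 0 higher (1.72% and 2.6% of all genes). This was Ccnd1 (cyclin D1), at −0.55 (SE 0.15, adjusted p = 0.0328), and at −0.69 (adjusted p = 0.00152) with the score. For dm-αKG, 1 of the 14 was lower, Fgfbp3, and 0 higher (0.751% and 1.12% of all genes). The average had 3 lower, Fgfbp3 and Ccnd1 among them, and 0 higher (6.17% and 5.7% of all genes).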

How the data were processed

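RNA from 10 mg of mouse brain was made into oligo-dT primed, UMI-tagged and tagmented libraries, per the labels' protocols; 36 libraries were analysed. The authors deposited estimated counts per gene symbol, written as whole numbers after rounding, and a CPM table. The submitters' processing notes name HISAT2 2.2.1 and featureCounts 2.0.6, SAMtools 1.6, Trim Galore 0.6.10 and, as builds, mm10 and mm39. Which build was counted, the strand setting and UMI collapsing are not given here, so reads of overlapping genes may be shared and amplified copies may be counted. The deposited CPM table times a constant for each library gave the counts within 1 count for 100% of values. Library totals of 5.77 to 13.3 M counts set the counting error.

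Counts were fitted with edgeR 4.0.16 (R 4.3.3; robust quasi-likelihood, filterByExpr, TMM) over 4 groups, with 16255 genes tested and Benjamini-Hochberg adjustment over all of them; a call is an adjusted p under 0.05, and every adjusted p in the text is edgeR's unless another tool is named. Region scores are means of log2 CPM (prior count 2) over marker lists. Alternatives were DESeq2 1.42.0, its size factors, limma 3.58.1 on log2(CPM + 1), no filter, covariates, libraries left out and a replicate block. The text names all 30 genes and Gpt2. Of each other list it names, for each genotype comparison, up to 4 called genes with the smallest adjusted p. The genes and lists were chosen with earlier results of these data known.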

Additional observations from a re-analysis of the deposited data

Results flagged for a closer look

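In 23 of 124 combinations of gene and group (30 genes and Gpt2, 4 groups), the highest or lowest library stood apart from the next by more than Dixon's 95% limit. That limit flags about 1 in 20 only where values are normally distributed and the tests independent. These values were CPM on a linear scale, and genes of 1 library can move together, so no comparison with chance is drawn from the 23 flags. The cerebellum-rich library KO-Veh-7 gave 8 of them, all high: Aqp4 (123 CPM, next 58.6), Slc4a4 (377), Mlc1 (214), S100b (870), Hopx (484), Sparc (3130), Timp4 (339) and Gdf10 (117, next 17.3). Its cerebellum score of 6.59 was the highest of its group. KO-aKG-5, the shallowest library at 5.77 M counts, gave 5: Slc6a11 (365 CPM), Mlc1 (195), Gja1 (224) and Ntsr2 (338) were high and Etv5 (8.33) was low. Its hypothalamus score of 4.84 was the highest of its group and its cortex score of 2.69 the lowest. WT-aKG-8 was high for Slc7a10 (75.7), Gfap (143) and Fgfr3 (106), and WT-Veh-2 for Kcnj10 (300 CPM) and Gfap (263). Their brainstem and thalamus scores of 4.02 and 4.83 were the highest of their groups. KO-aKG-7, the cerebellum-rich library of its group, was high for Hopx (253) and Gdf10 (27.5). Single flags were Gfap in KO-Veh-8 (96.9), and Chrdl1 in WT-aKG-4 (14.4) and in KO-aKG-3 (7.96). The part of regional content or depth in these values was not tested.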

How the results depend on the processing

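With vehicle, 4 of the 30 genes were called. This became 1 with no low-count filter, 2 without the cerebellum-rich libraries (Aqp4 and Slc7a10), 1 with only the 2 groups compared and 2 with limma; leaving out 1 library gave 1 (without WT-Veh-6) to 8 (without KO-Veh-7, the added genes being Gdf10, Hopx, Mlc1 and Slc4a4), with 2 without WT-Veh-1, WT-Veh-2, KO-Veh-4 or KO-Veh-10. With dm-αKG, 1 became 0 with no filter, without the cerebellum-rich libraries, with the replicate block and with limma, 3 with 5 region scores and 4 with oligodendrocyte and neuron scores, and 0 to 1 on leaving out 1 library. The average of 6 became 10 with 5 region scores, 10 with oligodendrocyte and neuron scores, 2 without the cerebellum-rich libraries and 2 with limma, and 5 to 11 on leaving out 1 library (11 without KO-Veh-7). Calls over all 16255 genes moved as well. Leaving out 1 library gave 440 to 1662 genes with vehicle (701 with all libraries) and 133 to 362 with dm-αKG (304 with all). For the average it gave 1455 to 2947 (1930 with all). With 5 region scores 1809 genes were called with vehicle, 477 with dm-αKG and 2952 in the average. The 18 cerebellum slopes became 1 without the cerebellum-rich libraries, and the 10 brainstem slopes became 0 with oligodendrocyte and neuron scores and 6 with the replicate block. Calls for treatment and interaction were 0 of 30 under every alternative. The cause was not tested.

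Direction reversed in these cases. With 5 region scores Gdf10 was 0.02 with vehicle, 0.04 with dm-αKG and 0.03 in the average, Ntsr2 was −0.39 in the average, and in treated knockouts Gfap was 0 and Chrdl1 0.13. Without the cerebellum-rich libraries, Aqp4 was 0.33, Slc7a10 0.11, Gdf10 0.44 and Slc4a4 0.3 with dm-αKG, Gdf10 0.04, Ntsr2 −0.26 and Itih3 0.18 in the average, and the cerebellum slopes of Acsbg1, Etv4, Fabp7 and Fgfr3 were −0.02, −0.15, −0.24 and 0.05. With the cerebellum score the averages of Ntsr2 and Itih3 were −0.2 and 0.13. With oligodendrocyte and neuron scores those of Slc6a11 and Itih3 were 0.17 and 0.04, with limma 0.2 and 0.01, and with the replicate block that of Slc6a11 was 0.04. With limma Slc7a10 was 0.04 with dm-αKG. Leaving out 1 library gave −0.26 to 0.07 for Slc7a10 with dm-αKG, and in the average −0.22 to 0.13 for Slc6a11, −0.09 to 0.09 for Ntsr2 and −0.17 to 0.07 for Itih3.

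The replicate numbers share no stated animal or batch. Same-numbered libraries correlated from −0.57 to 0.44 with vehicle and −0.36 to 0.61 with dm-αKG, over 0.1 in 3 of 10 and 7 of 8 pairs, and 2 of 10 and 3 of 8 correlated best with their own number, so the numbers were not taken as pairs. With the replicate block the calls of Fabp7 with dm-αKG (−1.22, adjusted p = 0.0699) and of Etv4 with vehicle (−0.94, adjusted p = 0.0629) did not pass. The fit to only the 2 groups compared gives no value for the average, the interaction or the slopes.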

Other observations

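Of 19 tested genes of reactive astrocytes, which respond to injury and inflammation, 4 were higher and 1 lower in knockouts in the average over treatments, where 5.7% of all genes were higher and 6.17% lower, and the median of the list was −0.01. Lcn2, which encodes the iron-carrier protein lipocalin 2, was higher with vehicle (0.83, SE 0.22, adjusted p = 0.0263) and in the average (0.63, SE 0.17, adjusted p = 0.0115). It stood at 0.798, 1.56 and 2.27 CPM in WT-Veh against 1.48, 1.96 and 5.2 in KO-Veh. C4b, a complement component, was higher with dm-αKG (1.56, SE 0.38, adjusted p = 0.0227), at 2.6, 4.72 and 6.17 CPM in WT-aKG against 5.96, 7.11 and 35.1 in KO-aKG. Its mean in KO-aKG was 13.7 CPM (SD 12.1, n = 8). C4b also rose with the brainstem and thalamus score within groups (slope 0.36, SE 0.09, adjusted p = 0.00501), whose median was 2.29 in KO-aKG and 0.51 in WT-aKG. With 5 region scores C4b was not called with dm-αKG (0.82, SE 0.32, adjusted p = 0.161) or in the average (0.54, SE 0.21, adjusted p = 0.0731). Osmr, the oncostatin M receptor (0.50, SE 0.14, adjusted p = 0.0174), and Serpina3n, a protease inhibitor (0.77, SE 0.22, adjusted p = 0.0197), were higher in the average, and Cd44, the hyaluronan receptor, was lower (−0.42, SE 0.12, adjusted p = 0.0209). With the cerebellum score all 5 kept their direction and were called in the average, with adjusted p-values of 0.0125 for Lcn2, 0.0156 for C4b, 0.0249 for Osmr, 0.0357 for Serpina3n and 0.0264 for Cd44.

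Genes of the pathway of Sonic hedgehog, the Purkinje cell signal that Bergmann glia receive, were counted as a list. With vehicle all 8 tested of 9 had estimates below 0 (median −0.51). Of these 0 passed with edgeR and 5 had an unadjusted p under 0.05. Over all genes 53.3% of estimates were below 0 there, and 3417 of 16255 had an unadjusted p under 0.05. In the average Gli2 (−0.50, SE 0.12, adjusted p = 0.00767) and Gas1 (−0.38, SE 0.12, adjusted p = 0.0389) were lower, where 6.17% of all genes were lower and 5.7% higher. With the cerebellum score Gli2 was at −0.48 (SE 0.13, adjusted p = 0.0123) and Gas1 at −0.21 (SE 0.10, adjusted p = 0.148).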
